A study of Mus musculus with 16 samples.

Results

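Collagens and laminins are the main structural proteins of the extracellular matrix, the scaffold outside cells. The genes described here were every entry of the deposited expression table whose symbol names a collagen chain (Col, a type number, a and a chain number) or a laminin chain (Lama, Lamb or Lamc with a number). These were 54 of 20601 listed genes, 43 for collagen chains and 11 for laminin chains. The 33 genes with at least 1 TPM (the transcript share of a library, from read density per transcript length) in 4 or more of the 16 libraries are described individually, and the other 21 are counted.

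Fibrillar collagens, above all types I and III, assemble into the rope-like fibers of connective tissue and scar. Type IV collagen and the laminins form flat sheets called basement membranes, under epithelia and around vessels, and each laminin joins an alpha, a beta and a gamma chain. In healthy liver, stellate cells and portal fibroblasts are known as the main makers of fibrillar collagen, the sinusoids lack a continuous basement membrane, and hepatocytes make much of the type XVIII collagen.

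The libraries came from 8 mice in which liver tumors were induced by hydrodynamic injection of 1 µg of a plasmid for human c-Myc and 19 µg of a plasmid for human N-Ras. A further 2 µg of plasmid supplied the Sleeping Beauty transposase, which inserts the transgenes into liver cell DNA. Polyadenylated RNA was sequenced from 4 tumors of mice on a ketogenic diet (KD), 4 tumors of mice on a normal diet (ND), 4 nontumor liver samples on KD and 4 on ND. The diets began at week 4 after injection and lasted 4 weeks, tissue was taken at week 8, and the KD held 0.1% carbohydrate, 89.5% fat and 10.4% protein. All 4 groups came from injected mice, the nontumor samples included, and no uninjected liver was among the samples. The level of the transgenes in either tissue was not analysed here. The labels give no strain, sex or age, and they do not say which tumor and nontumor samples came from 1 mouse, so each p-value refers to the spread among the samples at hand.

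Depth over the listed genes ran from 3518966 to 14074042 recovered reads per library. Library ND nontumor 4 stood apart: its listed genes held 7.38% of the TPM total, against 49.96% to 88.45% in the other 15 libraries. This share also differed between tumors by diet, at 77.05% to 79.93% on KD and 49.96% to 66.48% on ND, without overlap. Levels below are therefore rescaled TPM, that is TPM divided by a median-of-ratios factor for each library. Hepatocyte markers such as Alb summed to 129000 to 190000 rescaled TPM in KD tumors, 73000 to 128000 in ND tumors, 29600 to 86400 in KD nontumor liver and 44900 to 83000 in ND nontumor liver. Hepatocyte RNA was thus abundant in every library, which cannot check the tumor or nontumor label.

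The matrix RNA of tumors differed from that of nontumor liver in kind more than in amount. All 54 genes together summed to 408 ± 43.9 rescaled TPM in KD tumors, 539 ± 84.8 in ND tumors, 538 ± 89.4 in KD nontumor liver and 538 ± 68.3 in ND nontumor liver (mean ± SD, n = 4 each). Type I and III genes made up 82.7% ± 5.85 of the fibrillar sum in KD tumors and 64.4% ± 10.8 in ND tumors, against 16.9% ± 10.5 in KD nontumor liver and 19.8% ± 9.91 in ND nontumor liver. In nontumor liver the fibrillar sum was mostly Col5a3 and Col27a1, with 76.3% ± 11.9 on KD and 74.7% ± 10.6 on ND. Type IV and laminin genes together summed to 78.4 ± 16.6 rescaled TPM in KD tumors, 168 ± 34.6 in ND tumors, 42.2 ± 12.3 in KD nontumor liver and 59.0 ± 9.996 in ND nontumor liver. These sums are descriptions, with no test.

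**Figure D1:**
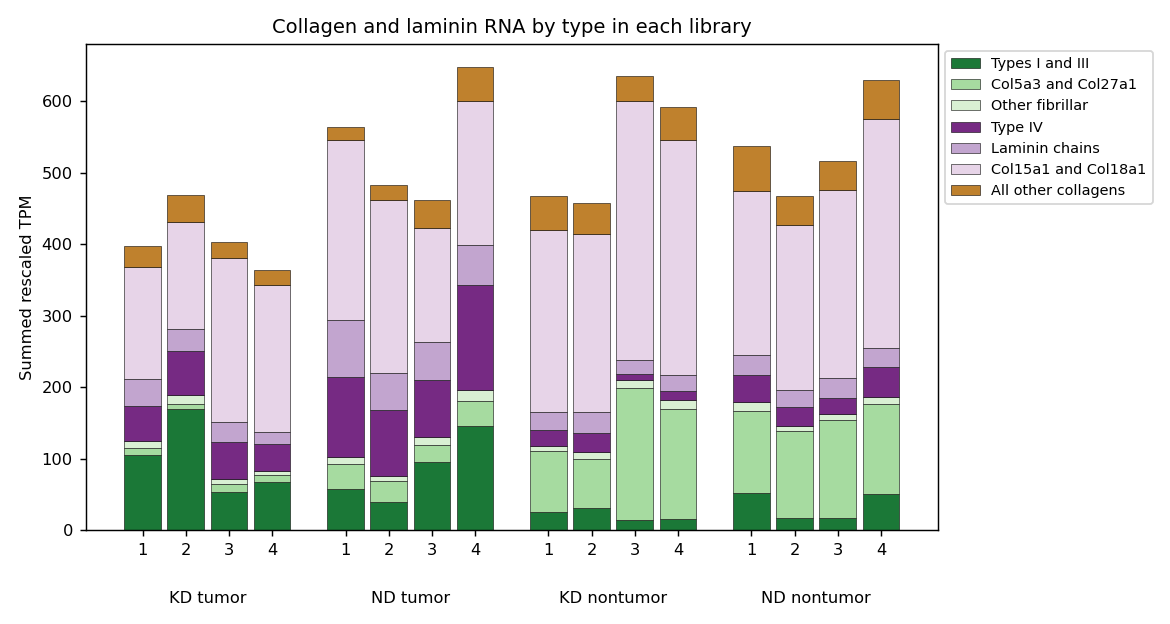
Stacked bars give the summed level (rescaled TPM, vertical axis from 0) of the collagen and laminin genes by type in each of the 16 libraries, with the library number within its group below. Dark green (types I and III) is the larger green part in every tumor bar and light green (Col5a3 and Col27a1) in every nontumor bar. Dark purple (type IV) is tallest in ND tumors, with a mean of 108 rescaled TPM against 49.9 in KD tumors.

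Each gene was tested with limma on log2(rescaled TPM + 1) in 1 fit over 13432 genes, with a Benjamini-Hochberg adjusted p of 0.05 as threshold. Fold changes below are on that log2 scale, which understates changes of low genes. In KD tumors against KD nontumor liver, 8 of the 33 genes rose (24.2%) and 9 fell (27.3%), where 16.3% of all tested genes rose and 16.2% fell. In ND tumors against ND nontumor liver, 10 rose (30.3%) and 7 fell (21.2%), against 14.5% and 14.2% of all tested genes. In KD tumors against ND tumors, 11 fell (33.3%) and 0 rose, against 8.49% and 7.21% of all tested genes. The tumor and diet comparisons share libraries, so their values are given side by side and not as support for each other. In all, 25 of the 33 genes passed in at least 1 comparison and 8 in none. The counts include Col4a3, Col4a4, Lamc3 and Col9a3, which the 1 TPM filter admitted mainly through the side of a comparison where they were high. The groups did not overlap for 20 of the 33 in KD tumors against KD nontumor liver, for 15 in ND tumors against ND nontumor liver and for 10 in KD against ND tumors, where the same held for 33.1%, 27.5% and 22.9% of all tested genes.

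Fewer calls passed on another scale. On deposited TPM, where library ND nontumor 4 is far below the others, 8 of the 17 tumor calls on KD were kept, 9 of the 17 on ND and 0 of the 11 between KD and ND tumors. Col3a1, Col4a1, Col4a2, Col15a1 and Lama5 were among those lost on KD, and Col5a3, Lama4 and Lamb1 among those lost on ND. Fold changes between KD and ND tumors were of similar size there, at -1.43 for Lama5, -1.66 for Col5a3 and -1.38 for Col4a2 (limma adjusted p = 0.274, 0.289 and 0.385). On deposited TPM without that library, an alternative chosen after seeing the data, 15, 14 and 9 of them were kept. Those lost included Col3a1 on KD (limma adjusted p = 0.0627) and Col1a2 and Lamb1 on ND (limma adjusted p = 0.151 and 0.167). On the rescaled values without ND nontumor 4, 15 of the 17 calls on ND were kept, with Col1a1 at a log2 fold change of 2.27, Lama5 at 2.58 and Col27a1 at -2.84 (limma adjusted p = 0.00261, 0.000101 and 3.23e-05).

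**Figure D2:**
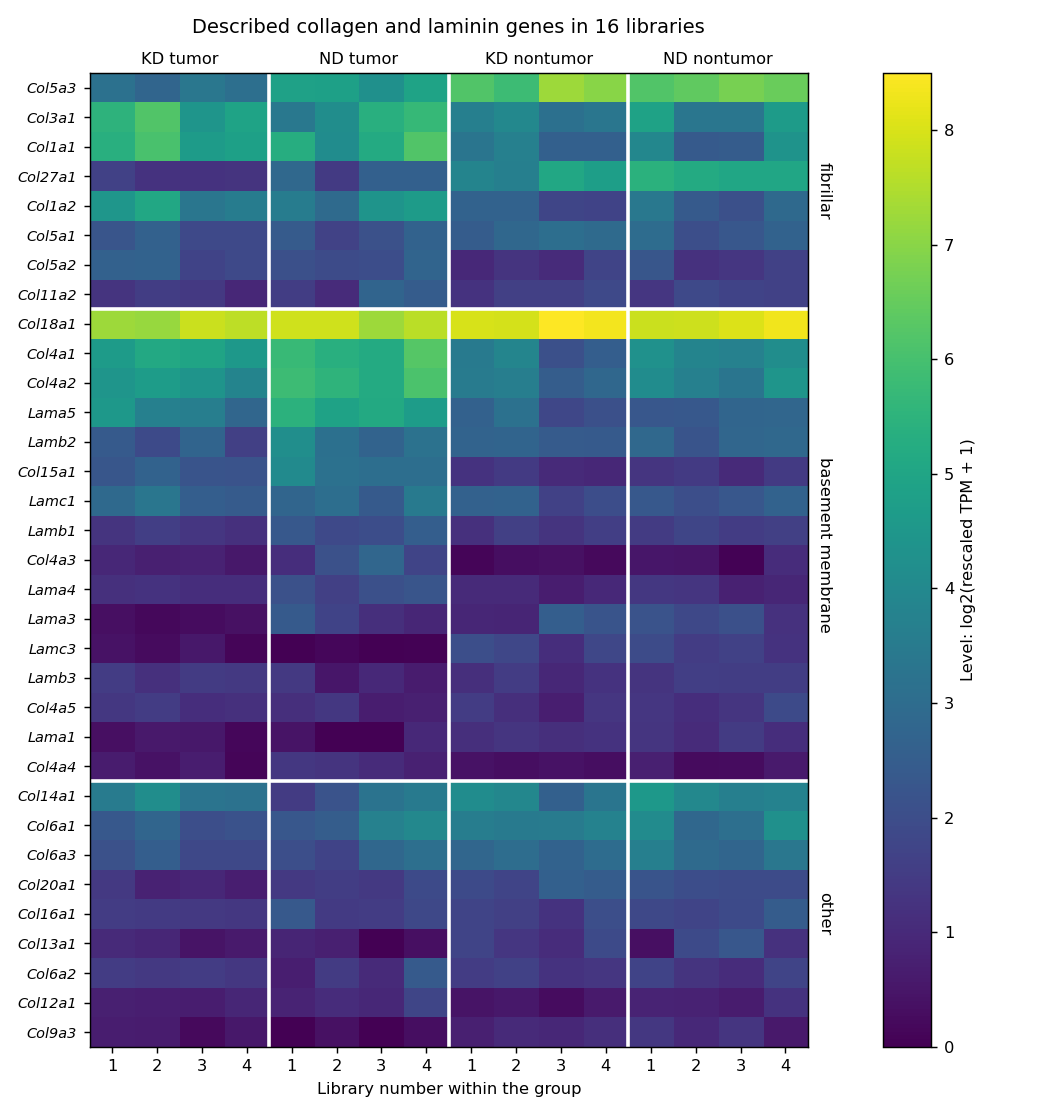
Heat map of the level, log2(rescaled TPM + 1), of the 33 described genes (rows, by class and then by highest group mean) in 16 libraries (columns, by group). Col18a1 is the brightest row in every column, Col5a3 and Col27a1 are bright in nontumor liver, and Col4a1, Col4a2 and Lama5 are brighter in ND tumors than in ND nontumor liver.

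Types I and III, the scar collagens, rose in KD tumors, and type I also in ND tumors. Type I collagen is built from the chains of Col1a1 (chr11:94936224-94953042, plus strand) and Col1a2 (chr6:4504814-4541544, plus strand), and type III from Col3a1 alone (chr1:45311538-45349706, plus strand; positions are in GRCm38 by GENCODE M21). Col1a1 was at 39.7, 64.9, 24.2 and 27.8 rescaled TPM in KD tumors, 37.9, 16.6, 35.8 and 71.3 in ND tumors, 8.89, 12.1, 5.05 and 5.05 in KD nontumor liver, and 14.2, 4.31, 4.51 and 19.9 in ND nontumor liver. Every KD tumor was above every KD nontumor sample, while on ND the lowest tumor was under the highest nontumor sample. The log2 fold change was 2.17 ± 0.48 in KD tumors against KD nontumor liver (SE, limma adjusted p = 0.0029) and 1.90 ± 0.48 in ND tumors against ND nontumor liver (limma adjusted p = 0.00722).

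Col1a2 followed with 20.9, 32.95, 9.10 and 10.8 rescaled TPM in KD tumors, 10.9, 6.73, 20.02 and 24.3 in ND tumors, 5.39, 5.34, 2.45 and 2.25 in KD nontumor liver, and 9.67, 4.36, 3.23 and 6.55 in ND nontumor liver. The groups did not overlap on KD and overlapped on ND. It rose by 1.90 ± 0.43 on the log2 scale on KD (limma adjusted p = 0.00333) and by 1.19 ± 0.43 on ND (limma adjusted p = 0.0492). The ND call was lost when any of 6 of the 8 ND libraries was left out, ND nontumor 4 among them (limma adjusted p up to 0.138).

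Col3a1 was at 44.3, 71.9, 20.6 and 29.7 rescaled TPM in KD tumors, 9.58, 17.2, 39.95 and 50.2 in ND tumors, 11.7, 14.5, 7.82 and 9.12 in KD nontumor liver, and 28.7, 9.06, 9.01 and 24.4 in ND nontumor liver. Every KD tumor was above every KD nontumor sample, and on ND the groups overlapped. The log2 fold change was 1.74 ± 0.49 on KD (limma adjusted p = 0.0129) and 0.60 ± 0.49 on ND (limma adjusted p = 0.39). The difference between these changes was 1.14 ± 0.70 and did not pass (limma interaction adjusted p = 0.401). Within the tumors, diet moved none of these genes past the threshold: the change in KD against ND tumors was 0.03 ± 0.48 for Col1a1, 0.21 ± 0.43 for Col1a2 and 0.61 ± 0.49 for Col3a1 (limma adjusted p = 0.979, 0.763 and 0.41).

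Beside the rise of these genes, Acta2, the smooth muscle actin of activated myofibroblasts, was at 62.8 ± 20.9 rescaled TPM in KD tumors, 48.8 ± 5.80 in ND tumors, 7.98 ± 3.52 in KD nontumor liver and 19.6 ± 13.8 in ND nontumor liver (mean ± SD, n = 4 each). It rose in tumors on both diets (limma adjusted p = 9.37e-05 on KD and 0.00951 on ND). The whole list of 12 stellate cell and myofibroblast markers was mixed: on each diet 1 of 10 tested markers rose (10%) and 3 fell (30%), namely Lrat, Colec11 and Ecm1, which mark resting stellate cells. Of all tested genes, 16.3% rose and 16.2% fell on KD, and 14.5% rose and 14.2% fell on ND. The sum of this list ran from 97.9 to 204 rescaled TPM in KD tumors, 131 to 186 in ND tumors, 160 to 292 in KD nontumor liver and 244 to 277 in ND nontumor liver, and Hhip was at 0 in every ND tumor. Of 10 markers of portal and capsular fibroblasts, 8 tested, 0 passed on KD, and on ND 2 rose (25%) and 5 fell (62.5%), beside the same shares of all tested genes. Among those that fell, Dcn was at 6.98 ± 4.60 rescaled TPM in ND tumors and 43.0 ± 14.2 in ND nontumor liver. In bulk tissue, more cells of a type and more RNA per cell cannot be told apart, and the part of these cells in the collagen changes was not tested.

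The fibrillar genes that dominated nontumor liver moved the other way. Col5a3 (chr9:20770050-20815067, minus strand) encodes a chain of type V collagen, a minor partner in type I fibers. It was at 8.04, 5.78, 9.44 and 7.57 rescaled TPM in KD tumors, 28.4, 27.3, 18.1 and 29.4 in ND tumors, 71.4, 55.6, 151 and 127 in KD nontumor liver, and 72.2, 85.5, 106 and 93.7 in ND nontumor liver. No KD tumor reached the lowest ND tumor, and no tumor reached the lowest nontumor sample. The log2 fold change was -3.46 ± 0.27 in KD tumors against KD nontumor liver (limma adjusted p = 4.27e-07), -1.76 ± 0.27 in ND tumors against ND nontumor liver (limma adjusted p = 0.000165) and -1.62 ± 0.27 in KD against ND tumors (limma adjusted p = 0.00218). The difference between the tumor changes on the diets was -1.70 ± 0.38, just outside the threshold (limma interaction adjusted p = 0.0555).

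Col27a1 (chr4:63214004-63334991, plus strand), a fibrillar collagen known from cartilage, was at 2.10, 1.34, 1.37 and 1.43 rescaled TPM in KD tumors, 6.27, 1.75, 5.06 and 5.12 in ND tumors, 13.1, 11.9, 33.03 and 25.9 in KD nontumor liver, and 42.1, 35.5, 31.9 and 32.0 in ND nontumor liver. All 8 tumors were below all 8 nontumor samples. It fell by 2.99 ± 0.31 on KD (limma adjusted p = 6.49e-06) and by 2.79 ± 0.31 on ND (limma adjusted p = 8.17e-06) on the log2 scale, and both changes kept their direction and call under each of 20 alternatives. In KD against ND tumors it fell by 1.04 ± 0.31 (limma adjusted p = 0.0352), with overlapping groups. That call was lost when any of 6 of the 8 tumor libraries was left out (limma adjusted p up to 0.103).

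The promoter windows of these genes, the members with the largest falls, are shown for their sequence context. They run from 250 bases before to 50 after the start in RefSeq (GRCm38.p6), Col5a3 at chr9:20815018-20815317 on the minus strand and Col27a1 at chr4:63215162-63215461 on the plus strand, both written 5′ to 3′. Capitals mark exact matches, on either strand, to any of 3 motifs. These are CCAAT, in the box of that name and held by 37.4% of 32851 promoter windows, then GGGCGG, the core of the GC box, held by 35.7%, and finally TATAAA, held by 13.6%.
Col5a3: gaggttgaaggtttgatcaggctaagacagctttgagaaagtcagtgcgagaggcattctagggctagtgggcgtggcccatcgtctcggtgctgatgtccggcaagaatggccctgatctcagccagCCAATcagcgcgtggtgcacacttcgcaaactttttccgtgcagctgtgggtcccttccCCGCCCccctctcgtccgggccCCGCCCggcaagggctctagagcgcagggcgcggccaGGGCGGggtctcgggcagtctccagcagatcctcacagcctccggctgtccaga
Col27a1: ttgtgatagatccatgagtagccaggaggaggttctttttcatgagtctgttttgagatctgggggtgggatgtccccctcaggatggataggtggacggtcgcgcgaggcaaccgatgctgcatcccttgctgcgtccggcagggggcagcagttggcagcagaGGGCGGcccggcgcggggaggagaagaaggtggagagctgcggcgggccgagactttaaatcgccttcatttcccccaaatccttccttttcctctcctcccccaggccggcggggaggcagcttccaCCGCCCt
The Col5a3 window held 1 CCAAT and 3 GGGCGG matches and the Col27a1 window 2 GGGCGG matches, and neither held TATAAA. A match describes letters and is not evidence of a bound factor.

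The other fibrillar genes were low. Col5a2, the partner chain of type V collagen with Col5a1, rose in KD tumors (3.88 ± 1.64 rescaled TPM, against 1.46 ± 0.63 in KD nontumor liver, log2 fold change 0.95 ± 0.29, limma adjusted p = 0.0179). The call was lost without KD tumor 1, KD tumor 2 or KD nontumor 3 (limma adjusted p up to 0.0632). Col5a1 and Col11a2, a cartilage chain, passed in no comparison, with group means of 3.57 to 6.20 and 1.48 to 3.31 rescaled TPM.

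**Figure D3:**
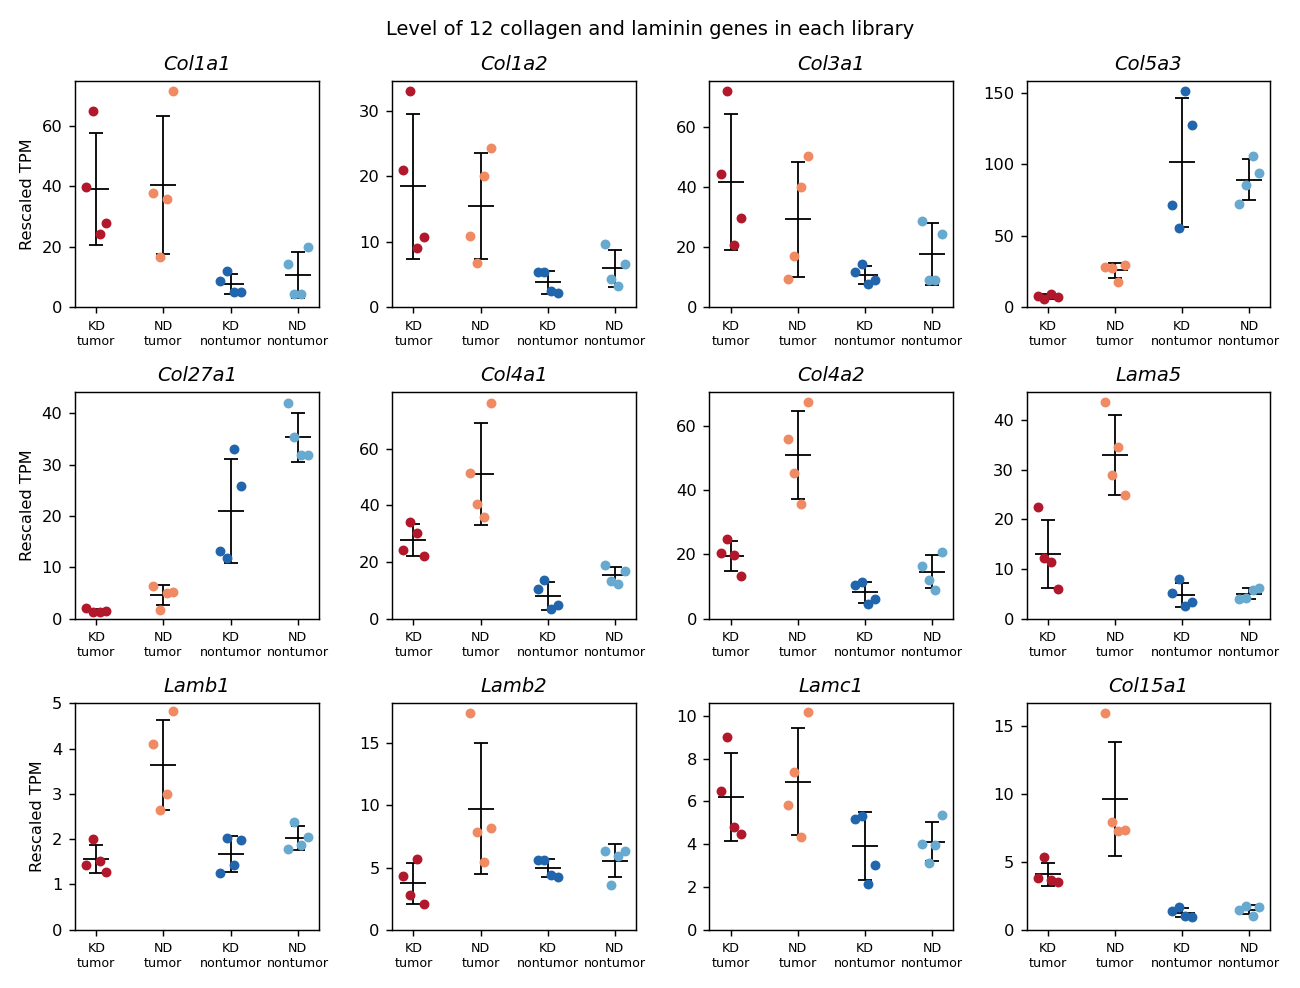
Points give the level (rescaled TPM, each vertical axis from 0) of 12 genes in each of the 4 libraries per group, with the mean (long tick) and SD (bars). Col5a3 and Col27a1 are lowest in tumors, Col1a1 and Col1a2 have higher means in tumors on both diets, and Col4a1, Col4a2, Lama5, Lamb1 and Col15a1 peak in ND tumors, as for Lama5 with 24.8 to 43.5 rescaled TPM against 5.92 to 22.4 in KD tumors.

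The main chains of type IV collagen, the network-forming collagen of basement membranes, rose in tumors on both diets. Its most widespread form joins the chains of Col4a1 (chr8:11198423-11312826, minus strand) and Col4a2 (chr8:11312805-11449287, plus strand), which lie head to head and share a promoter region. Col4a1 was at 24.3, 34.3, 30.2 and 22.1 rescaled TPM in KD tumors, 51.5, 40.6, 35.9 and 76.3 in ND tumors, 10.4, 13.6, 3.22 and 4.84 in KD nontumor liver, and 18.9, 13.2, 12.3 and 16.8 in ND nontumor liver. Col4a2 was at 20.4, 24.7, 19.9 and 13.2 in KD tumors, 56.1, 45.2, 35.7 and 67.4 in ND tumors, 10.5, 11.4, 4.64 and 6.12 in KD nontumor liver, and 16.4, 12.1, 8.92 and 20.8 in ND nontumor liver. For both genes the groups did not overlap in the comparisons of tumor with nontumor liver or of KD with ND tumors.

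Col4a1 rose by 1.82 ± 0.33 on the log2 scale in KD tumors against KD nontumor liver (limma adjusted p = 0.000666) and by 1.64 ± 0.33 in ND tumors against ND nontumor liver (limma adjusted p = 0.00151). Col4a2 rose by 1.21 ± 0.30 on KD (limma adjusted p = 0.00535) and by 1.77 ± 0.30 on ND (limma adjusted p = 0.000329). In KD against ND tumors, Col4a2 fell by 1.34 ± 0.30 (limma adjusted p = 0.0087), and Col4a1 changed by -0.82 ± 0.33, which did not pass (limma adjusted p = 0.0973). The level of Col4a1 over Col4a2 within a library, as a log2 ratio, was 0.51 ± 0.21 in KD tumors and -0.02 ± 0.15 in ND tumors (SD, n = 4 each), with no overlap. The difference was 0.54 (exact permutation p = 0.0286, the smallest that 4 against 4 libraries allow, and 0.1716 after adjustment over 24 ratio tests).

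**Figure D4:**
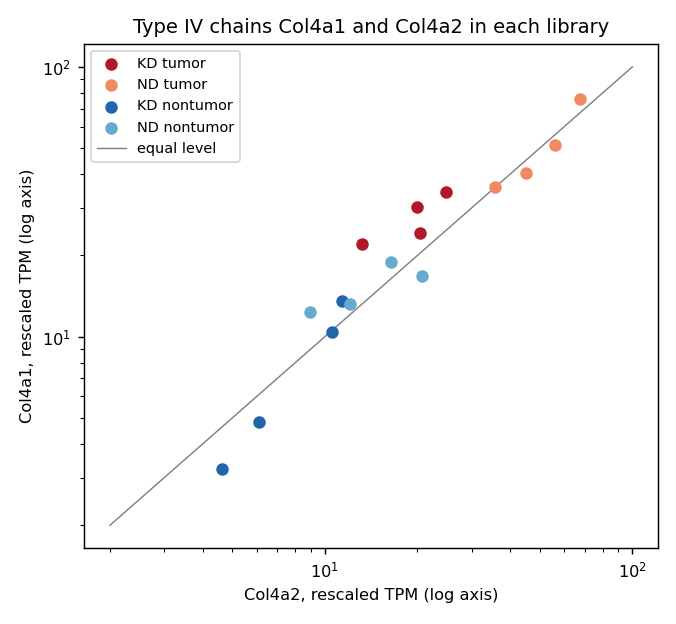
Each point is 1 of 16 libraries, with the level of Col4a2 on the horizontal and of Col4a1 on the vertical axis (rescaled TPM, both log axes), and the line marks equal levels. The 4 KD tumors (dark red) lie above the line, with 22.1 to 34.3 for Col4a1 and 13.2 to 24.7 for Col4a2, and the 4 ND tumors (orange) lie close to it at higher levels.

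The promoter windows of this gene pair are shown because the genes lie head to head and both rose in tumors. The window of Col4a1 is chr8:11312777-11313076 on the minus strand and that of Col4a2 chr8:11312555-11312854 on the plus strand in RefSeq (GRCm38.p6), their starts are 21 bases apart and the windows share 78 bases. Capitals mark the same 3 motifs on either strand.
Col4a1: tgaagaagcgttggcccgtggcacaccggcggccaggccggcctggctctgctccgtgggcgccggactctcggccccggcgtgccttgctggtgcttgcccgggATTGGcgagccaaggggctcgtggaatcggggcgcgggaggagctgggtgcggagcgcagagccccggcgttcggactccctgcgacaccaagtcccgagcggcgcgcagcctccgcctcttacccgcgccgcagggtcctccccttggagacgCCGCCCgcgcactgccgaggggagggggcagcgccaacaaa
Col4a2: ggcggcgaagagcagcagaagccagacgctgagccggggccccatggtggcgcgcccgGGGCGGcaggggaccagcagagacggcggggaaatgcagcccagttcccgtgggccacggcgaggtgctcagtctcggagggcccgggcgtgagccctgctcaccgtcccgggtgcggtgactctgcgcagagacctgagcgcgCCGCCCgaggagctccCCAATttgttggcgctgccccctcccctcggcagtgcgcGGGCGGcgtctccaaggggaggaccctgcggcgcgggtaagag
The Col4a1 window held 1 CCAAT and 1 GGGCGG match and the Col4a2 window 1 and 3, none held TATAAA, and matches in the shared bases are counted for both. The GC content was 74.0% and 73.7%.

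The remaining type IV chains, known from the glomerulus of the kidney, were rare. Col4a3 reached 1 deposited TPM in the 4 ND tumors and in no other library, with at most 0.945 rescaled TPM in KD tumors, 1.15 to 6.02 in ND tumors, at most 0.290 in KD nontumor liver and at most 1.13 in ND nontumor liver. It rose by 1.40 ± 0.30 in ND tumors against ND nontumor liver (limma adjusted p = 0.0022). Only the ND tumors put Col4a3 in the tested set, so that rise is no evidence of its own. In KD against ND tumors Col4a3 fell by 1.17 ± 0.30 (limma adjusted p = 0.0168), a call lost without KD tumor 4 (limma adjusted p = 0.0513). Col4a4, its neighbour on the opposite strand, showed the same directions at 0.401 ± 0.236 rescaled TPM in KD tumors and 1.21 ± 0.39 in ND tumors. Its rise in ND tumors was lost without any of 4 of the 8 libraries and its fall in KD tumors without any of 6 of the 8 (limma adjusted p up to 0.0785 and 0.121). Col4a5 passed in no comparison (group means 1.03 to 1.74 rescaled TPM).

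Among the laminins, the alpha chain of Lama5 (chr2:180176373-180225859, minus strand), the common alpha chain of adult vessel and epithelial basement membranes, rose most in tumors. It was at 22.4, 12.1, 11.4 and 5.92 rescaled TPM in KD tumors, 43.5, 28.9, 34.6 and 24.8 in ND tumors, 5.16, 7.96, 2.54 and 3.25 in KD nontumor liver, and 3.98, 4.07, 5.76 and 6.07 in ND nontumor liver. Every ND tumor lay above every other library, and KD tumor 4 lay within the range of KD nontumor liver. The log2 fold change was 1.25 ± 0.33 in KD tumors against KD nontumor liver (limma adjusted p = 0.00854), 2.50 ± 0.33 in ND tumors against ND nontumor liver (limma adjusted p = 3.98e-05) and -1.39 ± 0.33 in KD against ND tumors (limma adjusted p = 0.0125). Lama5 made up 43.2% ± 9.89 of the laminin sum in KD tumors, 55.0% ± 8.15 in ND tumors, 18.8% ± 6.55 in KD nontumor liver and 18.8% ± 3.62 in ND nontumor liver.

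The Lama5 window is shown as that of the laminin gene with the largest rise, at chr2:180225810-180226109 on the minus strand (RefSeq, GRCm38.p6), with capitals as above.
Lama5: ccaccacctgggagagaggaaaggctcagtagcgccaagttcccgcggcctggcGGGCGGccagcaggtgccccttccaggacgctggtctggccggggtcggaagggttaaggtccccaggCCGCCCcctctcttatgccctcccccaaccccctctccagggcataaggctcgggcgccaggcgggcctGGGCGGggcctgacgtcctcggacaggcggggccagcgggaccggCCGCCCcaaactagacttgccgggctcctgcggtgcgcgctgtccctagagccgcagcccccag
It held 4 GGGCGG matches and none of CCAAT or TATAAA, with a GC content of 72.7%.

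Of the 3 described beta chains, Lamb1 and Lamb2 fell in KD against ND tumors. Lamb1 (chr12:31265234-31329644, plus strand) was at 1.44, 2.01, 1.53 and 1.27 rescaled TPM in KD tumors, 4.09, 2.65, 2.99 and 4.82 in ND tumors, 1.25, 2.03, 1.44 and 1.99 in KD nontumor liver, and 1.78, 2.39, 1.87 and 2.04 in ND nontumor liver. The 4 ND tumors were above all other libraries. It fell by 0.84 ± 0.18 in KD against ND tumors (limma adjusted p = 0.00822) and rose by 0.60 ± 0.18 in ND tumors against ND nontumor liver (limma adjusted p = 0.0214). The rise was lost without any of 4 of the 8 libraries (limma adjusted p up to 0.0668).

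Lamb2 (chr9:108479736-108490530, plus strand), the beta chain of vessel wall and synaptic laminins, was at 4.34, 2.79, 5.71 and 2.05 rescaled TPM in KD tumors, 17.5, 7.87, 5.46 and 8.18 in ND tumors, 5.57, 5.65, 4.39 and 4.28 in KD nontumor liver, and 6.36, 3.61, 5.95 and 6.34 in ND nontumor liver. KD and ND tumors overlapped in 1 library of each group. It fell by 1.14 ± 0.29 in KD against ND tumors (limma adjusted p = 0.018), a call lost without KD tumor 4 or ND tumor 1 (limma adjusted p up to 0.062). It passed in no tumor comparison with nontumor liver.

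Lamc1 (chr1:153218922-153332786, minus strand), the gamma chain of most laminins, passed in no comparison. It was at 6.49, 9.004, 4.81 and 4.49 rescaled TPM in KD tumors, 5.83, 7.37, 4.32 and 10.2 in ND tumors, 5.17, 5.33, 2.15 and 3.01 in KD nontumor liver, and 4.01, 3.13, 3.95 and 5.34 in ND nontumor liver. Tumor and nontumor ranges overlapped on both diets, and the change in KD against ND tumors was -0.13 ± 0.27 (limma adjusted p = 0.78).

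The other laminin chains were low and moved in both directions. Lama4, the alpha chain typical of endothelium, was at 1.24 ± 0.10 rescaled TPM in KD tumors, 3.07 ± 0.70 in ND tumors, 0.901 ± 0.20 in KD nontumor liver and 1.17 ± 0.43 in ND nontumor liver. It fell by 0.84 ± 0.19 in KD against ND tumors (limma adjusted p = 0.00912) and rose by 0.91 ± 0.19 in ND tumors against ND nontumor liver (limma adjusted p = 0.00177). Lama3, an epithelial alpha chain, was at 0.239 ± 0.0706 in KD tumors against 2.17 ± 1.54 in ND tumors and 2.54 ± 2.00 in KD nontumor liver, and fell in both comparisons (limma adjusted p = 0.038 against ND tumors and 0.0139 against KD nontumor liver). The diet call was lost without any of 6 of the 8 libraries and the tissue call without KD nontumor 3 or 4 (limma adjusted p up to 0.117 and 0.0555). Lama1, the alpha chain of embryonic basement membranes, and Lamc3, a rare gamma chain, fell in tumors on both diets. Lama1 was at 0.326 ± 0.179 rescaled TPM in KD tumors and 0.334 ± 0.456 in ND tumors, against 1.32 ± 0.125 in KD nontumor liver and 1.39 ± 0.330 in ND nontumor liver. Its fall on KD (-0.82 ± 0.22, limma adjusted p = 0.0103) was lost with length and GC trends removed (limma adjusted p = 0.0558) and on deposited TPM (limma adjusted p = 0.0644). Lamc3 was at 0.274 ± 0.162 rescaled TPM in KD tumors and 0.0355 ± 0.0463 in ND tumors, against 2.32 ± 0.82 in KD nontumor liver and 2.07 ± 0.62 in ND nontumor liver. It passed the 1 TPM filter through nontumor libraries alone (7 libraries in 2 groups). Its falls are therefore no evidence of their own, though they are in the counts. Lamb3, the partner chain of Lama3, fell in ND tumors close to the threshold (log2 fold change -0.61 ± 0.21, limma adjusted p = 0.0362, and lost without any of 5 of the 8 libraries, as with 0.0682 without ND nontumor 4). It overlaps the abundant liver gene Hsd11b1 on the other strand. Since no strand setting is given in the sources used here, its reads are uncertain, as are those of Col18a1 (overlapping Slc19a1), Col9a3 (Tcfl5) and Col13a1 (Gm5750).

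Types XV and XVIII, collagens with sugar side chains that sit at the outer face of basement membranes, behaved differently from each other. Col15a1 (chr4:47208161-47313167, plus strand) was at 3.82, 5.35, 3.65 and 3.49 rescaled TPM in KD tumors, 15.95, 7.98, 7.31 and 7.38 in ND tumors, 1.35, 1.70, 1.02 and 0.949 in KD nontumor liver, and 1.48, 1.73, 1.04 and 1.70 in ND nontumor liver. No pair of groups overlapped except the nontumor groups. It rose by 1.17 ± 0.22 on KD (limma adjusted p = 0.00096) and by 2.04 ± 0.22 on ND (limma adjusted p = 6.79e-06), and fell by 1.013 ± 0.22 in KD against ND tumors (limma adjusted p = 0.00855).

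Col18a1 (chr10:77052178-77166548, minus strand), whose end fragment endostatin restrains vessel growth, was the most abundant gene of the set. It was at 152, 144, 225 and 201 rescaled TPM in KD tumors, 235, 235, 152 and 194 in ND tumors, 253, 247, 361 and 327 in KD nontumor liver, and 227, 229, 262 and 318 in ND nontumor liver. It held 45.1% ± 12.5 of the summed level of all 54 genes in KD tumors, 38.3% ± 8.48 in ND tumors, 55.1% ± 1.25 in KD nontumor liver and 48.1% ± 3.93 in ND nontumor liver. It fell by 0.72 ± 0.21 in KD tumors against KD nontumor liver (limma adjusted p = 0.0169), a call lost without KD tumor 1, KD tumor 2, KD nontumor 3 or KD nontumor 4 (limma adjusted p up to 0.0595). Because of this gene, the basement membrane class held 65.1% to 71.1% of the sum in tumors and 59.3% to 63.6% in nontumor liver, but 19.1% to 30.98% and 8.3% to 10.97% with types XV and XVIII counted among the other collagens.

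Of the 9 described genes outside both classes, 0 rose and 3 fell (33.3%) on KD, against 16.3% and 16.2% of all tested genes. On ND 0 rose and 2 fell (22.2%), against 14.5% and 14.2%. In a class of 9 genes, 0 rising is not far from those shares. Col14a1, which decorates type I fibers, was at 11.1 ± 4.07 rescaled TPM in KD tumors, 5.99 ± 3.99 in ND tumors, 11.3 ± 5.23 in KD nontumor liver and 15.3 ± 4.74 in ND nontumor liver. It fell by 1.39 ± 0.41 on ND (limma adjusted p = 0.018). That call was lost without ND tumor 1, ND tumor 2 or ND nontumor 1 (limma adjusted p up to 0.066). Col6a1, a chain of the beaded filaments of type VI collagen, was at 4.10 ± 1.24 in KD tumors, 8.93 ± 5.38 in ND tumors, 11.1 ± 1.05 in KD nontumor liver and 12.1 ± 6.02 in ND nontumor liver. It fell by 1.27 ± 0.37 on KD (limma adjusted p = 0.0138). Its partner Col6a2 did not pass (0.02 ± 0.29 on KD, limma adjusted p = 0.97), and Col6a3 fell on KD by 0.79 ± 0.28 (limma adjusted p = 0.0423), a call lost without any of 7 of the 8 libraries. Col20a1, a small fiber-associated collagen, fell by 1.21 ± 0.22 on KD (limma adjusted p = 0.000645), and Col9a3, a cartilage chain, by 0.88 ± 0.22 on ND (limma adjusted p = 0.00559). Col9a3 passed the 1 TPM filter through nontumor libraries alone (6 libraries in 2 groups), so its fall is no evidence of its own, though it is in the count. Col12a1, Col13a1 and Col16a1 passed in no comparison.

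**Figure D5:**
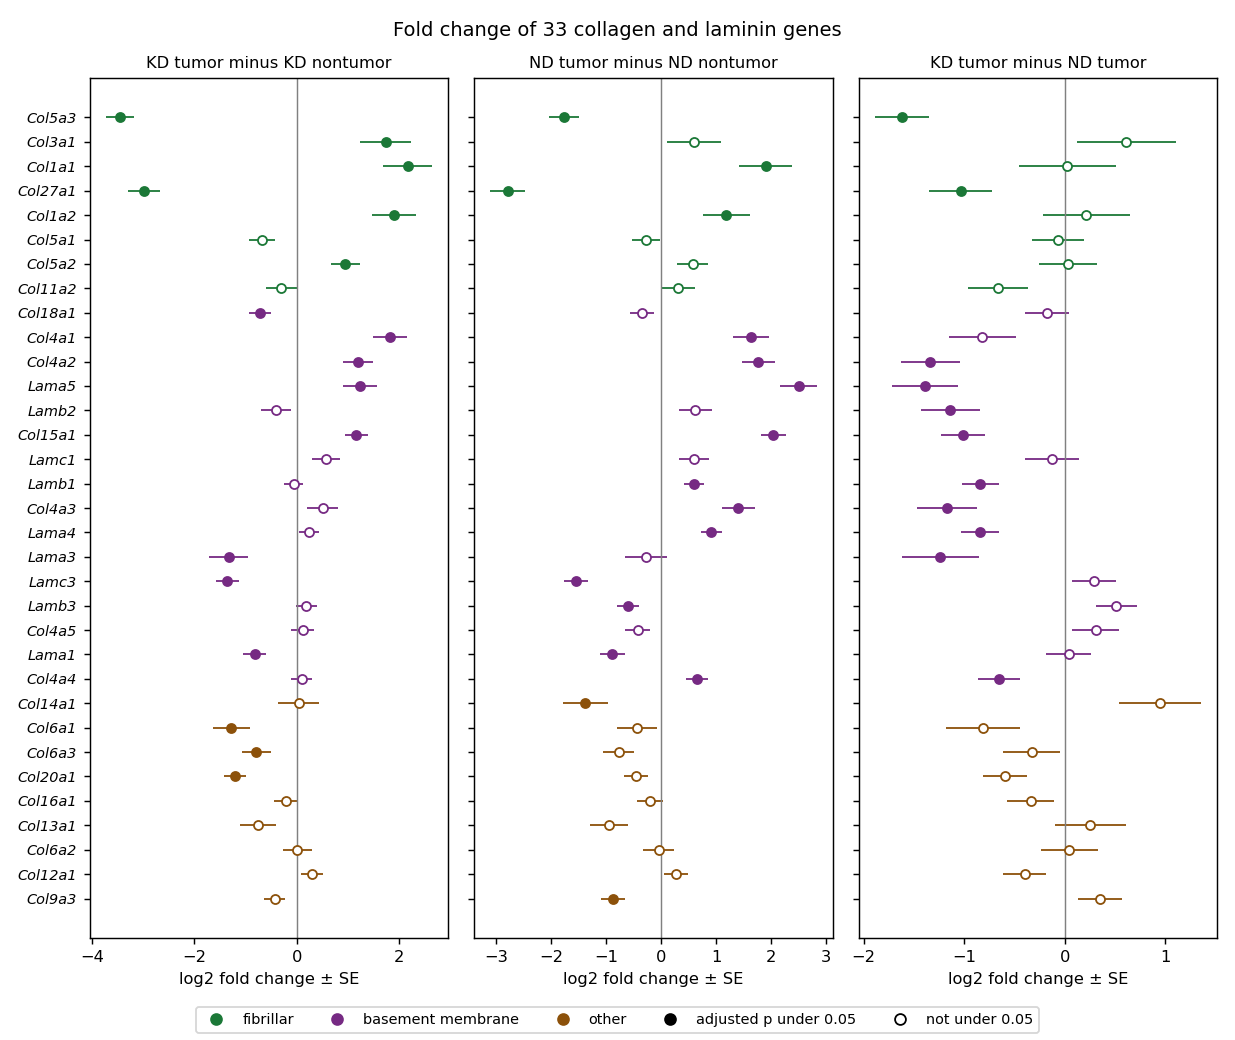
Points give the log2 fold change and bars its SE from limma for the 33 genes (rows) in 3 comparisons (panels), filled where the adjusted p is under 0.05 and coloured by class. In the right panel all 11 filled points are left of 0, and 9 of them are basement membrane genes.

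Many basement membrane genes, though not all, were lower in KD than in ND tumors. Of the 16 log2 fold changes, 12 were below 0 and 4 above. The class summed to 263 ± 31.8 rescaled TPM in KD tumors and 381 ± 64.3 in ND tumors (mean ± SD, n = 4 each). Its ranges overlapped, at 241.3 to 309.2 and 291.7 to 443.3. Col18a1, its most abundant gene, changed by -0.18 ± 0.21, which did not pass (limma adjusted p = 0.598). In KD against ND tumors, 9 of 16 basement membrane genes fell (Lama5, Col4a2, Lama3, Col4a3, Lamb2, Col15a1, Lama4, Lamb1 and Col4a4), 2 of 8 fibrillar genes fell (Col5a3 and Col27a1) and 0 of 9 others did, with no rise in any class by limma. These shares of 56.2%, 25% and 0% stand beside 8.49% of all tested genes that fell. At an unadjusted p under 0.05, 15 genes were lower and 2 higher, against 16% and 16.9% of all tested genes. limma's voom on recovered reads called 11 lower and 2 higher (Lamb3 and Lamc3), against 9.77% and 8.81% of all tested genes. The median log2 fold change was -0.83 over the basement membrane genes, -0.02 over the fibrillar genes and 0.03 over all tested genes. Col4a3 passed the 1 TPM filter through the 4 ND tumors alone, and Col4a4 through ND libraries alone (5 libraries in 2 groups). That high ND level put them in the tested set. Their falls here, and their rises in ND tumors against ND nontumor liver, are therefore no evidence of their own for the class. Both genes are nevertheless in its counts and medians.

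The calls in this diet comparison depended on some choices. Leaving out KD tumor 4 left 6 of the 11, those of Col5a3, Lama5, Col4a2, Col15a1, Lama4 and Lamb1, which held whichever library was left out. Fold changes over all genes leaned on transcript length and GC content (Spearman's rho -0.18 and -0.19 across 13129 genes, which are not independent replicates). With those trends removed 6 of the 11 still fell, Col4a3 among them, and Lamb3 rose. The calls of Lama5, Lamb2, Lama3, Col4a4 and Col27a1 were lost (limma adjusted p = 0.0558, 0.0562, 0.059, 0.0853 and 0.106).

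Endothelial markers moved in the same comparison. Of 12 tested, 5 fell in KD against ND tumors (Stab1, Pecam1, Cdh5, Tie1 and Cd34) and 2 rose (Stab2 and Clec4g). These shares were 41.7% and 16.7%, against 8.49% and 7.21% of all tested genes. The endothelial list summed to 114 to 181 rescaled TPM in KD tumors, 194 to 297 in ND tumors, 124 to 228 in KD nontumor liver and 196 to 226 in ND nontumor liver. Pecam1, found on all endothelium, was at 6.34 ± 2.31 rescaled TPM in KD tumors, 23.4 ± 8.36 in ND tumors, 6.0 ± 1.14 in KD nontumor liver and 7.52 ± 0.69 in ND nontumor liver. In ND tumors against ND nontumor liver 5 of the 12 rose (41.7%) and 3 fell (25%), against 14.5% and 14.2% of all tested genes. In KD tumors against KD nontumor liver 1 rose and 1 fell (8.33% each), below the 16.3% and 16.2% of all tested genes. No endothelial marker was at 0 in every library of a group, and the part of endothelium in the collagen and laminin values was not tested. Among 8 cholangiocyte markers, 6 tested, Sox9 fell in KD against ND tumors (6.60 ± 1.11 against 29.2 ± 7.85 rescaled TPM) and Cldn7 rose. Each was 1 of 6 (16.7%), against 8.49% of all tested genes that fell and 7.21% that rose. The cholangiocyte list summed to 28.4 to 47.4 in KD tumors and 55.0 to 78.1 in ND tumors, and Cftr was at 0 in every ND tumor. Smooth muscle markers summed to 14.7 to 33.4 rescaled TPM in KD tumors, 23.9 to 55.8 in ND tumors, 8.77 to 12.2 in KD nontumor liver and 9.18 to 21.3 in ND nontumor liver. The 3 listed skeletal muscle markers summed to at most 7.98 in any library.

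In nontumor liver, the diet did not move any gene of the set past the threshold. By limma 0 of 33 passed in KD against ND nontumor liver, where 0.00744% of all tested genes rose and 0.0447% fell, 3 were lower and 0 higher at an unadjusted p under 0.05 (Col4a1, Col4a2 and Col27a1), against 4.08% and 4.82% of all tested genes. By voom 0 of 33 passed, against 0.0149% higher and 0.0298% lower of all tested genes. The median log2 fold change was -0.18, against 0.01 over all tested genes. Libraries KD nontumor 3 and 4 differed from 1 and 2 in several genes, with Col5a3 at 151 and 127 against 71.4 and 55.6 rescaled TPM and Col4a1 at 3.22 and 4.84 against 10.4 and 13.6. They were also shallower, with 6132073 and 5676970 recovered reads against 11039834 and 10968126. The part of that split in the diet values was not tested.

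The difference between the tumor changes on the diets was tested as an interaction. By limma 0 of 33 passed, against 0.208% of all tested genes with a more positive and 0.409% with a more negative change on KD. At an unadjusted p under 0.05, 8 were more negative on KD (Col5a3, Lama5, Lamb2, Col4a3, Col15a1, Col20a1, Lama4 and Lamb1) and 2 more positive (Col14a1 and Lamb3), against 9.32% and 8.64% of all tested genes. By voom 1 passed, Col5a3, with a more negative change, against 0.395% of all tested genes with a more negative and 0.208% with a more positive one. A p that missed the threshold does not show that the tumor changes were alike on the diets.

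Ratios between chains were taken within a library, on deposited TPM with 0.1 added, so that a factor on the whole library largely cancels for chains well above 0.1 TPM. It does not cancel for low chains in ND nontumor 4, whose factor was 0.1282, such as Lama4 at 0.896 rescaled TPM there. The ratios covered partner chains (Col1a1 over Col1a2, Col4a1 over Col4a2 and Col6a1 over Col6a2), alternative chains (Lama5 over Lama4 and Lamb2 over Lamb1) and collagens of different types (Col3a1 over Col1a1). Of 24 tests (6 ratios in 4 comparisons of groups) none passed after adjustment (exact two-sided permutation tests, smallest adjusted p = 0.1716), and 4 reached the smallest unadjusted p of 0.0286. With that smallest p, a test can pass after adjustment only if many of the 24 tests reach it together. That none passed therefore does not show that the ratios were alike. Among the 4 tests at the smallest p was the Col4a1 ratio above. Col3a1 over Col1a1 gave a log2 ratio of 0.04 ± 0.19 in KD tumors against 0.53 ± 0.26 in KD nontumor liver, and of -0.57 ± 0.98 in ND tumors against 0.83 ± 0.37 in ND nontumor liver. Col6a1 over Col6a2 gave 1.15 ± 0.45 in KD tumors against 2.66 ± 0.36 in KD nontumor liver. Col1a1 over Col1a2, the chains of type I collagen, was at 1.17 ± 0.25 in KD tumors, 1.37 ± 0.41 in ND tumors, 1.01 ± 0.21 in KD nontumor liver and 0.62 ± 0.63 in ND nontumor liver, all on the log2 scale.

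The 21 genes below the 1 TPM filter were 3 fibrillar, 3 basement membrane and 15 other members. None was at 0 in all 16 libraries, 15 never reached 1 deposited TPM and 6 did so in 1 to 3 libraries (Col10a1, Lama2, Col7a1, Col8a1, Col6a5 and Col6a6). Their recovered reads over all libraries ran from 1 for Col2a1 and Col9a1, chains of cartilage, to 531 for Col6a6, and 5 had under 10 reads. Lama2, an alpha chain of muscle, had 399 reads and was left out by the filter. Among the 33 described genes, 25 had a library at 1 rescaled TPM or more in every group, and 17 were at that level in all 16 libraries. On deposited TPM, where ND nontumor 4 is low, these were 25 and 10.

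Genes that process, bind or degrade these proteins were counted from lists of their own. Their shares stand beside those of all tested genes, of which 16.3% rose and 16.2% fell in KD tumors against KD nontumor liver, 14.5% and 14.2% in ND tumors against ND nontumor liver, and 7.21% and 8.49% in KD against ND tumors. Of 10 tested partners of the basement membrane, 4 rose (40%) and 2 fell (20%) in KD tumors against KD nontumor liver, 5 rose (50%) in ND tumors against ND nontumor liver, and 3 fell (30%) in KD against ND tumors. Nid1, a nidogen that links laminin to type IV collagen, was at 28.5 ± 8.21 rescaled TPM in KD tumors, 23.5 ± 2.68 in ND tumors, 3.24 ± 2.83 in KD nontumor liver and 1.82 ± 0.62 in ND nontumor liver. It rose by 2.98 ± 0.34 on KD and 3.14 ± 0.34 on ND (limma adjusted p = 1.53e-05 and 6.72e-06), more than any of the 33 genes themselves. Nid2 and Hspg2, which encodes perlecan, were lower in KD than in ND tumors, at 5.70 ± 1.00 against 11.8 ± 3.21 and at 7.99 ± 1.21 against 16.9 ± 4.98 rescaled TPM (limma adjusted p = 0.012 and 0.0121). Agrn, which encodes agrin, a proteoglycan of basement membranes, fell in KD tumors against both KD nontumor liver and ND tumors. It was at 13.3 ± 2.51 in KD tumors, 23.3 ± 3.96 in ND tumors, 37.7 ± 1.54 in KD nontumor liver and 29.0 ± 6.83 in ND nontumor liver, and the interaction passed (-1.16 ± 0.25, limma adjusted p = 0.0465). Pxdn, the peroxidase that cross-links type IV collagen, fell on KD (2.55 ± 0.70 against 5.2 ± 0.70 rescaled TPM).

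Of 17 tested receptors, 7 rose (41.2%) and 2 fell (11.8%) in KD tumors against KD nontumor liver, 5 rose (29.4%) in ND tumors against ND nontumor liver, and 1 rose (5.88%) and 5 fell (29.4%) in KD against ND tumors. The laminin-binding integrin chain Itga6 was at 4.77 ± 2.41 rescaled TPM in KD tumors, 10.1 ± 2.23 in ND tumors, 0.802 ± 0.354 in KD nontumor liver and 1.13 ± 0.81 in ND nontumor liver. Itga3, another such chain, was at 21.4 ± 13.9 in KD tumors, 45.2 ± 9.63 in ND tumors, 6.77 ± 1.22 in KD nontumor liver and 8.36 ± 1.92 in ND nontumor liver. Both rose in tumors on each diet and fell in KD against ND tumors (limma adjusted p = 0.0301 for Itga6 and 0.029 for Itga3). Ddr1, a kinase activated by collagen, rose on both diets (log2 fold change 1.58 ± 0.35 on KD and 2.04 ± 0.35 on ND). Itga10, a collagen-binding chain, was lower in KD tumors (1.95 ± 0.50 rescaled TPM) than in ND tumors (5.66 ± 1.62).

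Of 27 tested genes of collagen modification and assembly, 7 rose (25.9%) and 4 fell (14.8%) in KD tumors against KD nontumor liver. In ND tumors against ND nontumor liver 4 rose (14.8%) and 2 fell (7.41%), and in KD against ND tumors 1 rose and 1 fell (3.7% each). Apart from the rises on KD, these shares were near or below those of all tested genes. Sparc, a collagen-binding glycoprotein, rose on KD (69.2 ± 17.1 against 21.4 ± 13.5 rescaled TPM) and on ND (89.1 ± 43.2 against 26.5 ± 6.69). Adamts14, which trims procollagen, did likewise (17.1 ± 7.24 against 5.16 ± 1.80 on KD and 18.1 ± 4.84 against 5.29 ± 1.52 on ND). Crtap, part of a collagen hydroxylation complex, rose on KD (11.97 ± 3.54 against 3.76 ± 3.33), and Fkbp10, a collagen chaperone, on ND (5.25 ± 2.00 against 1.87 ± 0.31). P4ha1, a subunit of prolyl hydroxylase, fell in KD against ND tumors (9.04 ± 2.16 against 21.97 ± 5.23, limma adjusted p = 0.00367). Ppib, a prolyl isomerase, rose (35.3 ± 12.2 against 15.3 ± 3.22, limma adjusted p = 0.0127). Of 13 tested genes of degradation, 3 rose (23.1%) in KD tumors against KD nontumor liver. In ND tumors against ND nontumor liver 2 rose and 2 fell (15.4% each), and in KD against ND tumors 1 fell (7.69%), shares near those of all tested genes. Mmp14, a membrane-bound collagenase, rose in ND tumors (109 ± 22.6 against 35.5 ± 15.1 in ND nontumor liver). It was lower in KD tumors (47.3 ± 23.0, limma adjusted p = 0.0159 against ND tumors). Timp1, an inhibitor of such enzymes, rose in KD tumors (13.6 ± 13.9 against 0.821 ± 0.559 in KD nontumor liver, limma adjusted p = 0.0463).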

How the data were processed

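RNA was measured as gene-level TPM, deposited by the authors in 1 table of 20601 genes by 16 libraries; all columns were matched to samples by name. Per the submitters' processing notes, FastQC, HISAT2, SAMtools, featureCounts and mm10 were used; versions, gene annotation, strand setting and the TPM step are not given in the sources used here. The TPM values divide into whole reads for 20601 of 20601 genes within a tolerance of 0.001, which gave the depth and the reads for voom. Deposited TPM was divided by a median-of-ratios factor over 12119 genes above 0 in all libraries (0.1282 for ND nontumor 4). limma 3.58.1 in R 4.3.3 (trend) was fitted to log2(rescaled TPM + 1) over all 16 libraries and the 13432 genes with TPM of at least 1 in 4 libraries, with Benjamini-Hochberg adjustment over all of them and a threshold of 0.05. Chain ratios used exact two-sided permutation tests with a pseudocount of 0.1. Tables were made in Python 3.11.15 with pandas 2.3.3 and numpy 2.4.6, and the test was tested on simulated data. The lowest chi-square per degree of freedom between 24 pairs of libraries of the same group was 11.6, so none was counted as a repeat.

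Every library's value was to be printed for up to 6 members per comparison that passed with a mean of at least 5 rescaled TPM, and for Col1a1, Col1a2, Col3a1, Col4a1, Col4a2, Lamb1 and Lamc1, and up to 3 genes per comparison were named from each list of companion genes. Marker lists covered hepatocytes, stellate cells and myofibroblasts, portal and capsular fibroblasts, smooth muscle, endothelium, cholangiocytes and skeletal muscle. The members and all lists were chosen with earlier results of these data known. Numbers shared by tumor and nontumor samples were not treated as pairs, since the correlations of same-numbered samples ran from -0.112 to 0.164. Alternatives covered pseudocount, filters, scale, groups in the fit, sample weights, a replicate block, length and GC trends, voom and leaving out each library.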

Additional observations from a re-analysis of the deposited data

Results flagged for a closer look

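Some single libraries lay far from the other 3 of their group by Dixon's criterion, which chance meets in about 1 of 20 groups. Among the 33 members this was so in 4 of 132 groups. Col27a1 was at 2.10 rescaled TPM in KD tumor 1, against 1.34 to 1.43 in the other KD tumors. In ND tumors, Col15a1 was at 15.9 in library 1, against 7.31 to 7.98, and Col5a2 at 5.64 in library 4, against 2.83 to 3.26. Lamb2 was at 3.61 in ND nontumor 2, against 5.95 to 6.36. The laminin sum was 80.6 in ND tumor 1, against 52.0 to 54.9 in the other ND tumors. The listed genes held 7.38% of TPM in ND nontumor 4, against 73.36% to 84.29% in the other ND nontumor samples.

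Among the named companion genes this was so in 7 of 68 groups. Adamts14 was at 27.8 rescaled TPM in KD tumor 1, against 12.8 to 14.7. Itga3 was at 30.8 in ND tumor 2, against 48.6 to 51.1, and Sparc at 154.0 in ND tumor 4, against 63.6 to 70.6. Pxdn was at 6.24 in KD nontumor 4, against 4.73 to 4.92. Crtap was at 6.39 in ND nontumor 3, against 2.92 to 3.34. In ND nontumor 4, Mmp14 was at 58.0, against 26.6 to 29.4, and Timp1 at 11.1, against 0.463 to 1.98.

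The change in tumors against nontumor liver differed between KD and ND, by limma's interaction term, for Agrn (-1.16 on the log2 scale) and for the endothelial markers Stab2 (1.44), Clec4g (2.16) and Cd34 (-1.89), with adjusted p from limma of 0.0465, 0.0492, 0.044 and 0.0303.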

How the results depend on the processing

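Of 895 alternative values of 45 member calls, 759 kept the call, 136 lost it in the same direction and 0 reversed, and 15 calls were kept under every alternative run. On deposited TPM the calls numbered 8 on KD (2 higher, 6 lower), 9 on ND (7 and 2) and 0 in KD against ND tumors, the median log2 fold change of all genes being -0.26, 0.43 and 0.00; with ND nontumor 4 also left out they numbered 17, 15 and 9. With length and GC trends removed, KD against ND tumors gave 7 calls (1 higher), with or without the replicate block. Leaving out each library gave 13 to 17 calls on KD, 14 to 17 on ND, 6 to 11 in KD against ND tumors (6 without KD tumor 4) and 0 to 1 for the interaction. The interaction gave 3 calls with a common sum of listed genes (Lama5, Col15a1 and Col5a3) and 1, Col5a3, with sample weights, with voom, on deposited TPM of 15 libraries, or without ND tumor 3, KD nontumor 1 or KD nontumor 2. KD against ND nontumor liver gave 1 call, Col27a1, with sample weights. The replicate block gave 19 calls on KD, 15 on ND, 11 in KD against ND tumors and 0 otherwise. Without types XV and XVIII the basement membrane share was 19.1% in KD tumors, 31.0% in ND tumors, 8.3% in KD nontumor liver and 10.97% in ND nontumor liver, against 65.1%, 71.1%, 63.6% and 59.3% with them. The cause of the other shifts was not tested. With 1 library of a pair of groups left out, the exact test of a chain ratio has fewer assignments than the 70 of 4 against 4 libraries. Depth limits the members near 1 TPM.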
